A study of Mus musculus with 3 samples.

Results

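The genes described here encode the proteins of the cytosolic ribosome, taken by symbol: protein-coding genes of the mouse annotation GENCODE M1 (genome build mm9) whose symbol starts with Rpl or Rps followed by a digit, without the Rps6k kinases. This gave 134 of 22350 protein-coding genes on the 19 autosomes and the X chromosome. By their symbols, 72 of them were the canonical single-copy genes, 42 of the large subunit (Rpl) and 30 of the small subunit (Rps). A further 8 were named paralogs, such as Rpl22l1 and Rps27l, and 1 encoded a binding protein, Rps19bp1. The other 53 carried a -ps ending, the usual name of a processed copy, although the annotation lists them as protein-coding. Another 98 -ps genes are annotated as pseudogenes and served as a comparison. For each gene, the deposited regions were counted over the gene record with 5 kb on either side, and within 1 kb of its start, the 5′ end of the record. A region counted when it shared at least 1 bp.

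The regions come from ChIP-seq of freshly isolated, resting natural killer (NK) cells from the spleen of ICR mice, fixed in 1% formaldehyde and sheared to fragments of about 300 bp. There were 3 samples: chromatin precipitated with an in-house polyclonal antibody to the transcription factor Runx3, with a monoclonal antibody to monomethylated lysine 4 of histone H3 (H3K4me1), and with non-immune rabbit serum (NIS) as the control. The methods give the mice as wild type, and none was treated. The labels give a sort for NKp46 after negative selection, whereas the published methods give DX5, and those methods joined the reads of repeat experiments before calling peaks. The deposited data are therefore 1 list per antibody, 15524 Runx3 peaks (median width 825 bp) and 49902 H3K4me1 regions (median width 1801 bp), each called against NIS, with no height or score. No replicate list and no control value per region was analysed here. Accordingly no test was made, and the 95% Wilson intervals below cover counting error over genes only. In bulk chromatin, binding in fewer cells and weaker binding in every cell cannot be told apart. Against the labelled cell type, 10 of 10 NK marker genes had a Runx3 peak within 5 kb, beside 39.8% of all protein-coding genes. Such a peak was also found at 2 of 7 T cell, 2 of 5 B cell and 1 of 5 myeloid marker genes.

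Ribosomal proteins are made in near-equal amounts, and each canonical protein is the product of 1 expressed gene, while the genome holds many reverse-transcribed copies of these messages. The promoters of the expressed genes are short and rich in G and C, usually without a TATA box, and transcription begins at a C within a run of pyrimidines, the 5′ terminal oligopyrimidine (TOP) tract through which translation of these mRNAs is controlled. Runx3 is one of the RUNX factors, which bind a short consensus (the words TGTGGT and likewise TGTGGC, as well as TGCGGT and likewise TGCGGC), and it acts in NK and cytotoxic T lymphocytes. H3K4me1 lies at enhancers and beside active promoters, where it typically flanks a start that carries trimethylated rather than monomethylated lysine 4.

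The bases from 150 before to 20 after the start are printed for 5 canonical genes whose start lay inside a Runx3 peak, in order to show where the RUNX letters sit. They are among those whose match lay closest to the peak midpoint, out of 11 with a match before the start and no other coding gene in that window. Rps3a (chr3:85946605-85946774, minus strand), Rps13 (chr7:123477685-123477854, minus), Rps16 (chr7:29135521-29135690, plus), Rps23 (chr13:91062577-91062746, plus) and Rps12 (chr10:23506996-23507165, minus) are given 5′ to 3′ in the direction of transcription, in build mm9. Capitals mark RUNX matches, and a match on the opposite strand reads as its reverse complement, such as ACCACA in Rps3a for TGTGGT.
Rps3a: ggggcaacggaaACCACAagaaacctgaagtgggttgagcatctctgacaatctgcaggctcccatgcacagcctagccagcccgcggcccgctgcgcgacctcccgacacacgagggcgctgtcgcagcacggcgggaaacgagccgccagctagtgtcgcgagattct
Rps13: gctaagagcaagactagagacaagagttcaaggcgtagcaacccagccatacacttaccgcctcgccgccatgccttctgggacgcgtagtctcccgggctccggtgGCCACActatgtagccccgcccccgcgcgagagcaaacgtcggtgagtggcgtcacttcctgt
Rps16: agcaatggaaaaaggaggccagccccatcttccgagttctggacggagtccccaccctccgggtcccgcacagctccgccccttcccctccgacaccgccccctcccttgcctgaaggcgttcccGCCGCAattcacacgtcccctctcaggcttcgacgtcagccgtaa
Rps23: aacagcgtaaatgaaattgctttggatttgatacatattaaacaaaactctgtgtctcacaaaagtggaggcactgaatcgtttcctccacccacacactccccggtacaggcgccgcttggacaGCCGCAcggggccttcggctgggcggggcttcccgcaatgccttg
Rps12: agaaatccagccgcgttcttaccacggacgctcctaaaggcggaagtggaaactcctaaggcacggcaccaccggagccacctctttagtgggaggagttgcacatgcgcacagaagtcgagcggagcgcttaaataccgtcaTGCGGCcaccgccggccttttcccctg

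In these sequences the match closest to the peak midpoint was 19 bp from it in Rps3a, 23 bp in Rps13, 60 bp in Rps16, 76 bp in Rps23 and 111 bp in Rps12. The positions differed: the match of Rps3a began 138 bases before the start, whereas that of Rps12 began 7 bases before it. For contrast, the same stretch is printed for the first 3 canonical genes by symbol that had no Runx3 peak within 5 kb, namely Rpl11 (chr4:135609324-135609493, minus strand), Rpl23 (chr11:97643732-97643901, minus) and Rpl28 (chr7:4744326-4744495, plus). None of the 3 held a RUNX match in these bases.
Rpl11: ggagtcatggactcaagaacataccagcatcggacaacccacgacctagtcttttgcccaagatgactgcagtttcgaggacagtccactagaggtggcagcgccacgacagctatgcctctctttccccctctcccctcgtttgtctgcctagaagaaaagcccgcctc
Rpl23: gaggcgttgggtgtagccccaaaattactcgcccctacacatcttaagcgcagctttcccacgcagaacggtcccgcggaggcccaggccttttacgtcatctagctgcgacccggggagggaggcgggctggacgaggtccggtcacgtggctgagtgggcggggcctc
Rpl28: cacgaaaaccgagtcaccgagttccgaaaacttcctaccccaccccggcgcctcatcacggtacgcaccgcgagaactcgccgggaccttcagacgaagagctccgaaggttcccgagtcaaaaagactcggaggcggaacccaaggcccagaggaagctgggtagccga

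Runx3 peaks lay at most canonical ribosomal protein genes and at almost none of their copies. Of all 134 genes, 64 (47.8%, interval 39.5 to 56.2) had a peak within 5 kb, beside 39.8% of all protein-coding genes. That sum joined unlike groups: 55 of the 72 canonical genes had a peak (76.4%, 65.4 to 84.7), but only 4 of the 53 -ps genes annotated as coding (7.55%, 2.97 to 17.9). The -ps genes annotated as pseudogenes stood near the latter, with 11 of 98 (11.2%). At the start itself, 52 of the 134 genes had a peak within 1 kb (38.8%, 31 to 47.3), beside 25.8% of all protein-coding genes. Here the canonical genes gave 47 of 72 (65.3%, 53.8 to 75.2), the coding -ps genes 1 of 53 and the pseudogenes 0 of 98 (interval up to 3.77%). The peak covered the start base in 49 of the 134 genes, beside 21.4% of all genes, and 45 of these were canonical. Of the large subunit genes 26 of 42 (61.9%, 46.8 to 75) and of the small subunit genes 21 of 30 (70%, 52.1 to 83.3) held a peak at the start, with overlapping intervals.

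**Figure D1:**
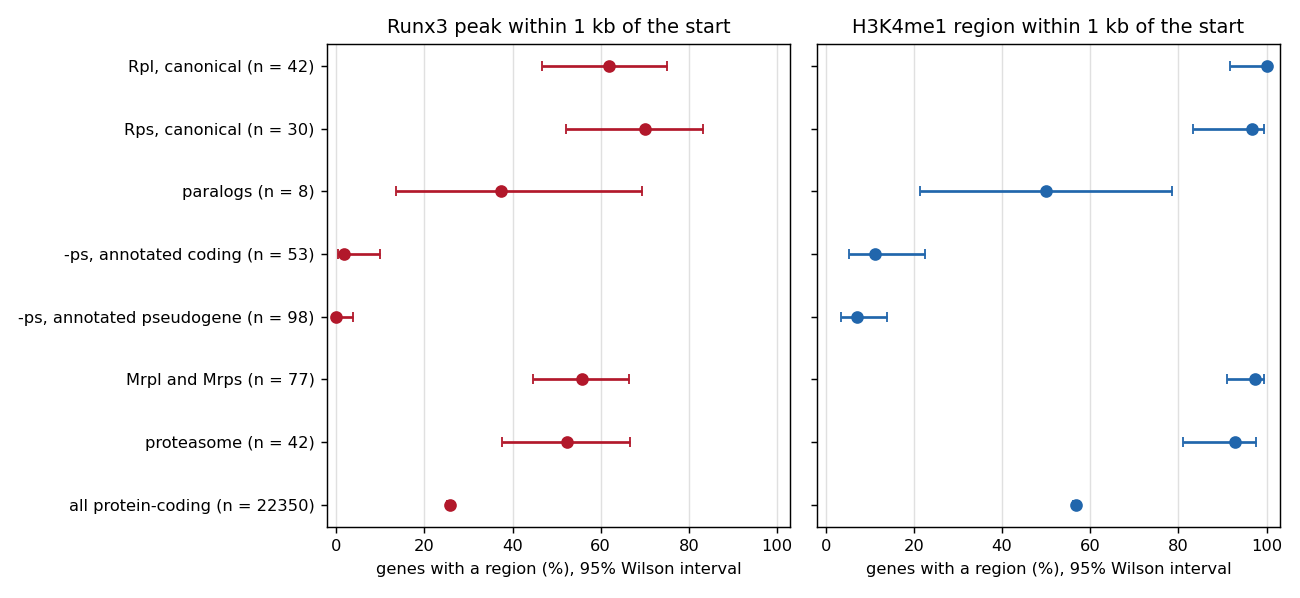
Share of genes with a Runx3 peak (left) or an H3K4me1 region (right) within 1 kb of the start, in percent, for each set of genes. Points are shares and bars 95% Wilson intervals; both canonical sets stand at 61.9% and 70% for Runx3, and both -ps sets below 2%.

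Other housekeeping gene families were read from the same lists. Of the 77 mitochondrial ribosomal protein genes (Mrpl and Mrps), which serve a separate ribosome, 43 had a Runx3 peak at the start (55.8%, 44.7 to 66.4). Of the 42 proteasome subunit genes, 22 did (52.4%, 37.7 to 66.6). Their intervals overlapped that of the canonical genes (53.8 to 75.2), and the difference was not tested. Many start sites lie beside another: 13 canonical genes had another coding gene start within 1 kb, and 10 of these held a Runx3 peak there (76.9%). Among genes with such a neighbour the share was 56.3% over all protein-coding genes, 75.9% of the mitochondrial and 54.5% of the proteasome genes. With these genes set aside, 37 of 59 canonical genes held a peak at the start (62.7%). Without such a neighbour, 21.6% of protein-coding, 43.8% of the mitochondrial and 51.6% of the proteasome genes did. In Rpl13a, for example, the start of Flt3l, the gene of a cytokine that expands dendritic and NK progenitors, lay 15 bp away, so that their peak cannot be assigned to either gene.

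Short reads from a copied gene may fail to align uniquely, and only unique alignments entered the lists. The share of 40-base words around the start that occur once in mm9 had a median of 94.1% in the canonical genes (lowest 73.3%, in Rpl37a) and 77.4% in the coding -ps genes (lowest 2%), beside 99.3% over all genes. Inside the gene records the medians were 87.4% and 34.7%. Rpl37a itself had a Runx3 peak at its start. With the 3 -ps genes below 50% unique words left out, 1 of 50 still had a peak at the start (2%). The part of alignability in these shares was not tested further. Sequence composition also moved with the groups, since the 300 bp promoter window held a median of 18 CpG in the canonical genes, 5 in the coding -ps genes and 11 over all genes, and its part was not tested.

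Most canonical genes had a single peak. Exactly 1 peak lay within 5 kb in 40 genes, 2 in 11 and 3 or more in 4. Rpl13a, whose product joins the complex that silences inflammatory mRNAs after interferon-gamma, had the most, with 4 peaks. Of these, 1 lay at its start and the others had midpoints 7303, 11909 and 14835 bp downstream, in or beyond a gene record of 10860 bp. Rpl35 and Rps15a had 3 peaks each. Rpl12, the next by symbol with 2 peaks, had 1 at its start, with the midpoint 13 bp upstream, and 1 beyond its end, 5591 bp downstream of the start. The plot of regions around the 72 starts shows this pattern for each gene, in that the peaks away from the start were few and scattered, and those at the start were stacked over it.

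**Figure D2:**
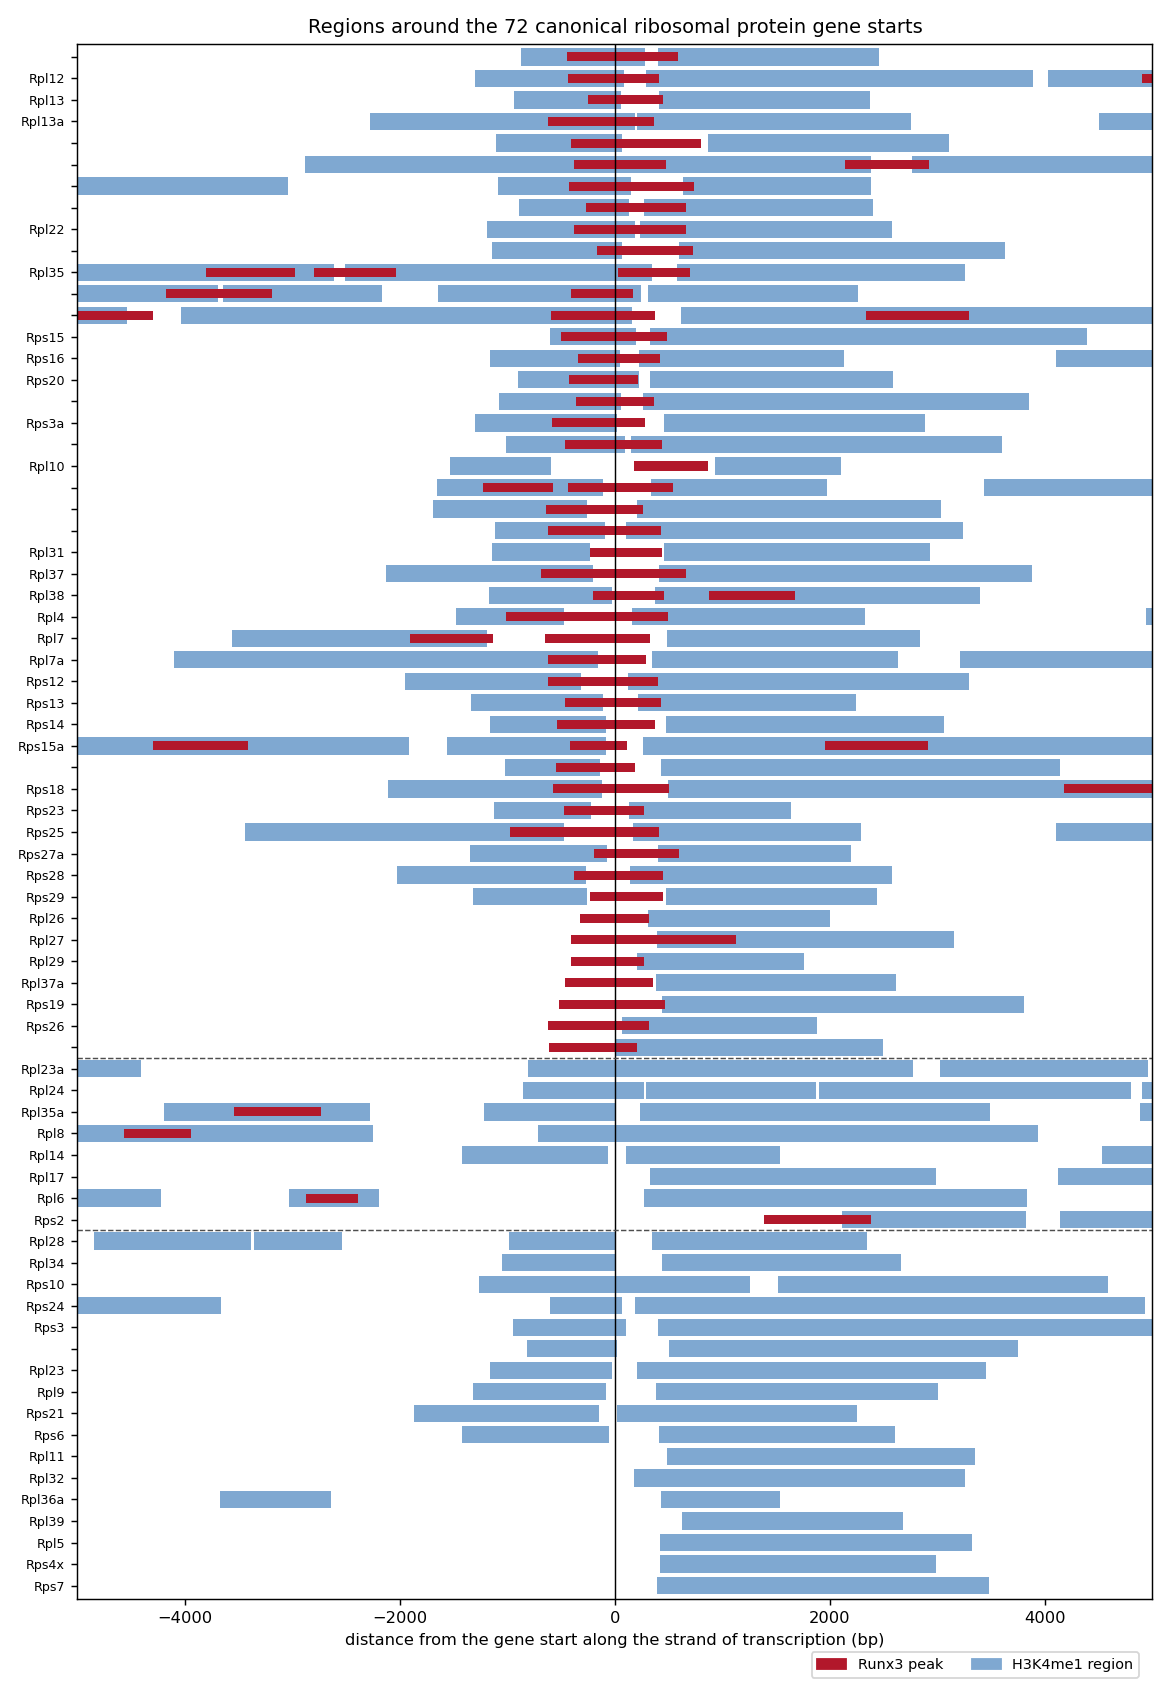
Runx3 peaks (red) and H3K4me1 regions (blue) within 5000 bp of the start of each canonical gene, 1 gene a row, by distance along the strand of transcription in bp. Dashed lines part the 47 genes with a Runx3 peak within 1 kb of the start (top), the 8 with a peak in the gene window only and the 17 with none; peaks farther out in long records fall outside the plot. Symbols are given for genes named in the text.

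The 17 canonical genes with no Runx3 peak within 5 kb included Rpl5, Rpl9, Rpl11, Rpl23, Rpl28, Rpl32, Rpl34, Rpl36a, Rpl39, Rps3, Rps4x, Rps6, Rps7, Rps10, Rps21 and Rps24. Among them, Rpl5 and Rpl11 encode the pair that binds the p53 regulator Mdm2 when ribosome assembly fails, Rps6 is the substrate of the S6 kinases, and Rps3 lies at the entry of the mRNA channel. The unique words at their starts had a median of 94.5% (lowest 87.5%, highest 100%), beside 94.2% (73.3% to 100%) in the 47 genes with a peak at the start. Promoter GC content was 55% and 56% by median. Of the 4 canonical genes on the X chromosome, 3 were in this list (Rpl36a, Rpl39 and Rps4x), and the remaining one, Rpl10, had a peak that began downstream of the start, with its midpoint 525 bp away. Without chromosome X, 79.4% of canonical genes had a peak within 5 kb, against 76.4% with it. Over all protein-coding genes these shares were 40.8% and 39.8%, so peaks were fewer at X-linked genes of all kinds. All 17 nevertheless had an H3K4me1 region within 1 kb of the start.

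A further 8 genes had a peak in the window but not at the start: Rpl6, Rpl8, Rpl14, Rpl17, Rpl23a, Rpl24, Rpl35a and Rps2. Rpl6 and Rpl8 had 1 each upstream, with midpoints 2632 and 4252 bp before the start. The peaks of Rpl14 and Rpl17 lay 5687 and 5502 bp downstream. Rps2 and Rpl24 depend on the annotation: the record of Rps2 starts at a transcript whose alternative coding start lies 2135 bp away, and counting a peak at any annotated coding start would raise the canonical number from 47 to 49 by these 2 genes.

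Other genes often discussed by name did have a peak over the start. In Rps19, the gene most often mutated in Diamond-Blackfan anaemia, the midpoint lay 28 bp upstream in a peak of 991 bp. In Rps14, lost in the 5q- syndrome, it lay 85 bp upstream in a peak of 907 bp. In Rps27a, which encodes ubiquitin fused to a ribosomal protein, it lay 200 bp downstream. Rpl22, needed for the development of alpha-beta T cells, had its midpoint 139 bp downstream, and its paralog Rpl22l1 had a peak 185 bp downstream. Rpl38, needed for translation of Hox mRNAs, had 2 peaks within 1 kb, the nearer with its midpoint 126 bp downstream.

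Peaks were centred close to the start. Over the 47 canonical genes with a peak, the midpoint had a median of -16 bp from the start (interquartile range -119 to 101.5, negative upstream), beside -30 bp (-164 to 124.8) over 5770 protein-coding genes with a peak at the start. Its distance regardless of side had a median of 112 bp, beside 148 bp over all, 112 bp over mitochondrial ribosomal and 126 bp over proteasome genes. Of the 47 midpoints, 41 lay within 250 bp of the start (87.2%, beside 67.1% of all, 72.1% of mitochondrial ribosomal and 72.7% of proteasome genes). The median was -85 bp for small subunit genes (-154 to -7, n = 21) and 47 bp for large subunit genes (-90.8 to 149.5, n = 26). The midpoint was upstream in 17 of 21 small subunit genes and 12 of 26 large subunit genes, and the ranges overlapped, -282 to 200 bp and -259 to 525 bp. This difference was seen after the values were known and was not tested.

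**Figure D3:**
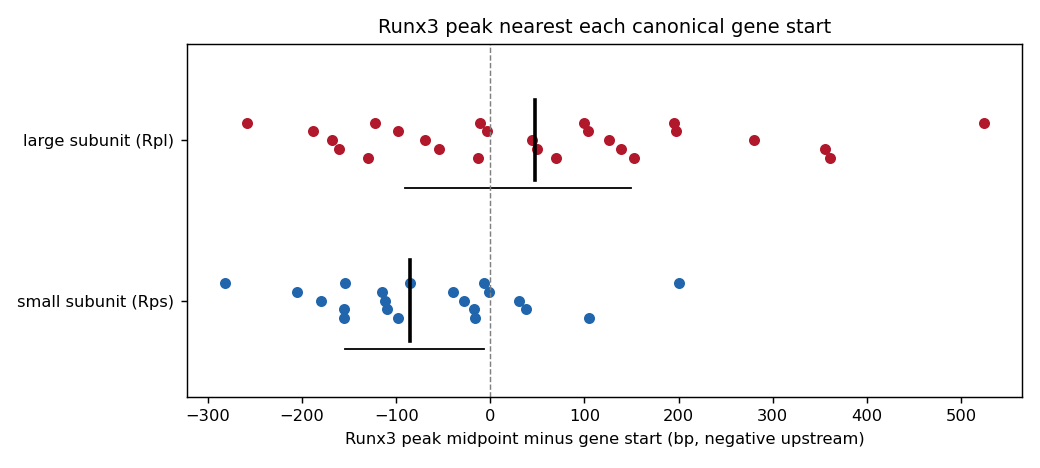
Distance in bp from the gene start to the midpoint of the nearest Runx3 peak, for the 26 large and 21 small subunit genes with a peak at the start. Each point is a gene, the thick bar the median (47 and -85 bp) and the thin line below it the interquartile range; the vertical spread of points has no meaning.

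The peaks were of ordinary width, with a median of 901 bp in the canonical genes (724.5 to 992) and 857 bp over all starts with a peak. The widest at a start were those of Rpl27 (1533 bp), Rpl4 (1511 bp), Rps25 (1380 bp), Rpl37 (1344 bp) and Rpl22l1 (1303 bp). Rpl4 and Rps25 each share the area with another start, 283 bp away in Zwilch and 166 bp away in Trappc4. The narrowest among the canonical genes was that of Rps15a, at 533 bp. With peaks of more than the median width alone, 29 of the 72 canonical genes kept a peak at the start (40.3%), beside 14.8% of all protein-coding genes.

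The RUNX consensus was common in these peaks. At least 1 match lay in 41 of the 47 canonical peaks (87.2%, 74.8 to 94), beside 91.2% of all peaks at coding starts. In the central 200 bp the shares were 57.4% and 58.9%. The 6 peaks with no match included those of Rpl29, Rpl37a, Rps15, Rps20 and Rps26. Where a match was present, the nearest lay a median of 73 bp from the midpoint (34 to 158), beside 64 bp. By words, TGCGGC was held by 28 of the 47 peaks (59.6%, beside 53.2% of all) and TGCGGT by 14 (29.8%, beside 37.3%). The word TGTGGC was held by 20 (42.6%, beside 46.7%) and TGTGGT by 18 (38.3%, beside 42.1%). In the 300 bp promoter window (250 before to 50 after the start), 35 of 72 canonical genes held a RUNX match on either strand (48.6%), beside 45.3% of all promoters and 47.2% of the coding -ps genes.

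Other promoter letters were counted in the same window. An ETS match (AGGAAGT or CGGAAGT, either strand) was present in 30 of 72 canonical promoters (41.7%, 31 to 53.2), beside 16.1% of all promoters, 40.5% of proteasome and 20.8% of mitochondrial ribosomal promoters, and 1.89% of the coding -ps genes. The SP1 letters GGGCGG were present in 45.8%, beside 43.5% of all. A run of 8 or more pyrimidines within 20 bp of the start, the letters of a TOP tract, was found in 23 of 72 canonical genes (31.9%, 22.3 to 43.4), in 15 of 53 coding -ps genes (28.3%, 18 to 41.6) and in 15.7% of all genes. That share counts the start base of the record, which may lie some bases from the true start. TATAAA on the sense strand was found in 4 of the 72 (5.56%), beside 9.05% of all.

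H3K4me1 was present beside every canonical gene. All 72 had a region within 5 kb, against 91 of all 134 genes (67.9%) and 67.7% of all protein-coding genes. Within 1 kb of the start, 71 of 72 had a region, the exception being the distant start of the Rps2 record. Over all 134 genes this number was 82 (61.2%), beside 56.8% of protein-coding genes. The coding -ps genes had 13 of 53 within 5 kb (24.5%) and 6 of 53 at the start (11.3%). Mitochondrial ribosomal and proteasome genes reached 97.4% and 92.9% at the start. Neither mark was found within 5 kb of 43 of the 134 genes, beside 32.1% of all, and these were 40 coding -ps genes and the paralogs Rpl10l, Rpl39l and Rps4y2. Rpl10l and Rpl39l are known as testis-expressed copies.

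The mark lay around the start and often did not cover it. The start base was inside a region in 29 of 72 canonical genes (40.3%, 29.7 to 51.8), which were most of the 31 such genes among the 134, beside 34.5% of all genes, 67.5% of mitochondrial ribosomal genes (56.5 to 76.9) and 47.6% of proteasome genes. Counting any annotated coding start raised the canonical number to 36 (50%), beside 40.5% of all genes. Along the canonical genes, H3K4me1 covered 75% of them 600 bp upstream, 26.4% 100 bp downstream and 98.6% 950 bp downstream. Over all genes the matching low point was 33.4% and the high point downstream 48.2%. Proteasome genes fell to 40.5% between 71.4% and 90.5%, and mitochondrial ribosomal genes to 64.9% between 88.3% and 96.1%. The Runx3 profile was the reverse, highest near the start with 63.9% of canonical genes 50 bp downstream, and at 2.78% by 1000 bp on either side.

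**Figure D4:**
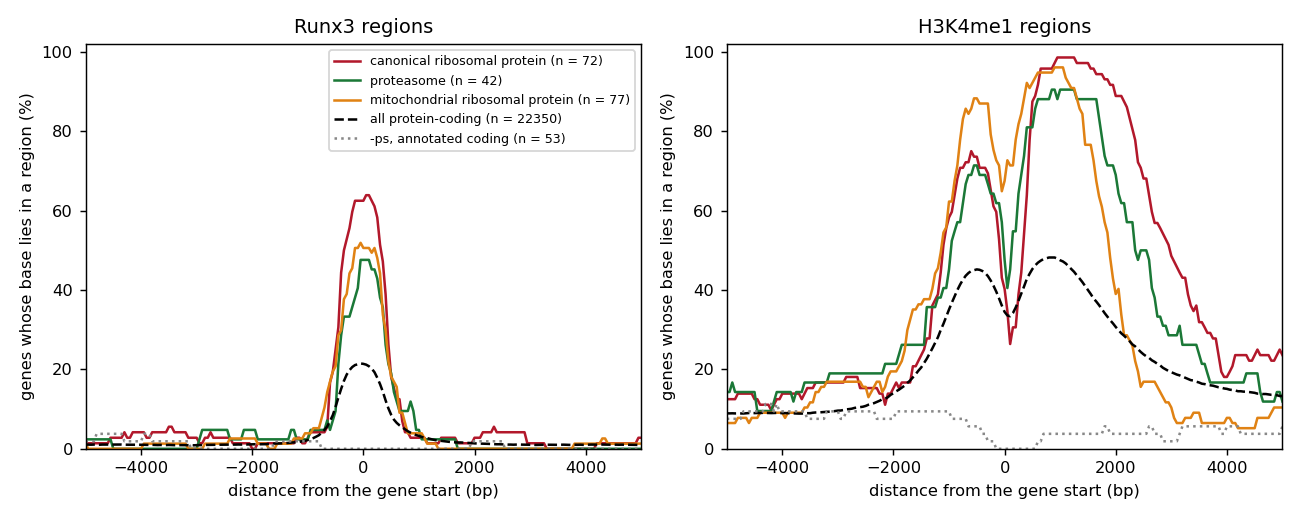
Percent of genes whose base at each distance from the start (bp, negative upstream) lies in a Runx3 peak (left) or an H3K4me1 region (right), in steps of 50 bp. Lines are canonical ribosomal protein, proteasome, mitochondrial ribosomal protein and coding -ps genes, and all protein-coding genes (dashed); the canonical line peaks at 63.9% for Runx3 and dips to 26.4% for H3K4me1 just past the start.

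The uncovered starts fell into few patterns. Of the 134 genes, 31 had an uncovered start with H3K4me1 within 2 kb on both sides, beside 16.0% of all genes, and 26 of these were canonical (36.1% of the 72). This both-sides class held 28.6% of proteasome and 24.7% of mitochondrial ribosomal genes. In another 16 canonical genes the mark lay downstream only (22.2%), beside 6.04% of all, 16.7% of proteasome and 5.19% of mitochondrial ribosomal genes. No canonical gene had the mark upstream only, beside 1.74% of all genes and no gene of either family. Rps19, Rpl26, Rpl29 and Rpl32 had the mark downstream only, as did 3 of the 4 genes on the X chromosome. In the 26 genes marked on both sides, the gap between the flanking regions had a median of 465 bp (362.5 to 617.8), from 164 bp in Rpl14 to 1672 bp in Rpl7. The median gap was 537 bp over 3582 such genes of all kinds, 243 bp over 19 mitochondrial ribosomal genes and 298 bp over 12 proteasome genes. From an uncovered canonical start, the next region downstream began a median of 359.5 bp away (185.2 to 426, n = 42).

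Many Runx3 peaks lay across those gaps. At 50 of 72 canonical starts, 2 or more separate H3K4me1 regions lay within 1 kb (69.4%), beside 27.3% of all genes. Mitochondrial ribosomal genes, at 66.2%, and proteasome genes, at 64.3%, stood near the canonical share. Such regions lay at 38 of 47 canonical genes with a Runx3 peak at the start (80.9%) and 12 of 25 without one (48%). The matching shares were 63% and 14.8% over all genes, 77.3% and 50% in proteasome genes, and 69.8% and 61.8% in mitochondrial ribosomal genes. In 22 of the 38 the peak midpoint lay between the regions (57.9%), beside 45.7% over all such genes and 33.3% over mitochondrial ribosomal genes. In 26 the peak reached across the whole gap (68.4%), beside 56.4% and 90%. Rps28 was an example: its start, 29 bp from that of Ndufa7, was flanked by regions that ended 274 bp upstream and began 143 bp downstream, and its Runx3 peak of 826 bp had its midpoint at 30 bp. In all, 17 of 47 canonical peak midpoints lay inside an H3K4me1 region (36.2%), beside 60.5% of peaks at all coding starts and 67.4% at mitochondrial ribosomal starts. Of the 47 peaks, 42 shared at least 1 bp with the mark (89.4%, beside 95.7%). The exceptions were Rpl7, Rpl10, Rpl31, Rpl37a and Rps29.

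Both lists were also read together by class. Of the 47 canonical genes with a peak at the start, 19 had a covered start, 21 an uncovered start with the mark on both sides and 7 the mark downstream only. Of the 25 without one, the numbers were 10, 5 and 9, with 1, Rps2, in none of these. Runx3 at all protein-coding starts gave 53%, 39.1% and 6.52% for these classes, where the canonical genes gave 40.4%, 44.7% and 14.9%. The widest region at a canonical start had a median of 2566 bp, beside 2296 bp over all genes. The widest regions in a gene window were those of Rpl27a-ps1 (15270 bp), Rpl13 (9498 bp), Rps18 (8157 bp) and Rpl13a (6521 bp). The region of Rpl13 began 7671 bp downstream of its start, beyond the gene.

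Rpl27a-ps1 was the only -ps gene with a Runx3 peak within 1 kb of its start. It lies 11985 bp from the start of Prf1, which encodes the pore-forming protein perforin of NK cell granules. The 15270 bp H3K4me1 region ended 161 bp before the start of Rpl27a-ps1 and covered Prf1, and both of its Runx3 peaks, with midpoints 1184 and 3566 bp upstream, lay within it. The other coding -ps genes with a peak in the window were Rpl12-ps1, Rps26-ps1 and Rps6-ps1, with midpoints 4314 bp upstream, 2223 bp downstream and 4740 bp upstream. No peak covered the start base of any of the 53 (interval up to 6.76%), nor did any H3K4me1 region.

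The paralogs were mixed. Rpl22l1, Rpl36al and Rps27l each had a peak over the start, with midpoints 185 bp and 80 bp downstream and 101 bp upstream. The start of Rpl36al lay 75 bp from that of Mgat2. Rpl3l, the form of striated muscle, had 1 peak 3350 bp upstream, which it shares with Rps2, and no H3K4me1 within 2 kb of the start. Rpl7l1 had H3K4me1 on both sides of the start and no Runx3 peak. Rps19bp1, whose product binds Rps19, had 2 peaks, 1 of them over its start in a covered region.

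The symbol rule misses 7 further components of the ribosome. Of these, 5 had a Runx3 peak over the start, beside 21.4% of all protein-coding genes. All 7 had H3K4me1 within 1 kb of the start, beside 56.8% of all. Those with a peak included Rplp0 and Rplp2 of the stalk, Fau, which encodes a fusion with a ubiquitin-like protein, and Gnb2l1, which encodes the scaffold Rack1. Their midpoints lay 75 bp upstream, 203 bp downstream, 46 bp upstream and 78 bp downstream. Rplp1, the partner of Rplp2, and Rpsa had none within 5 kb. Of 16 translation factors and other genes with TOP mRNAs, 9 had a Runx3 peak at the start (56.2%, 33.2 to 76.9). The share was 25.8% over all protein-coding genes. Among the 9 were Eef2, Eef1g, Eif4b, Tpt1 and Npm1. Eef1a1, the main elongation factor, had a peak within 5 kb but not at its start, and Eef1b2, Eif3e, Nap1l1, Naca and Btf3 had none. H3K4me1 lay at all 16 starts, beside 56.8% of all genes. Of the 16, 10 were in the uncovered class marked on both sides (62.5%, 38.6 to 81.5), beside 16% of all genes.

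Small nucleolar RNAs are encoded in introns of many of these genes. An annotated snoRNA lay within 28 of the 72 canonical genes, and 18 of the 28 had a Runx3 peak at the start, beside 29 of the 44 without a snoRNA. Rpl4 held 5, and Rpl7a and Rpl13a held 4 each, all with a Runx3 peak at the start.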

How the data were processed

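ChIP DNA of resting splenic NK cells was sequenced as 40 bp reads and, per the labels, aligned to mm9 with ELAND. The submitters' processing notes name CASAVA 1.7. The authors kept uniquely aligned reads, joined repeats and called regions with MACS against NIS, scaling the larger set to the smaller. The deposited lists hold coordinates only, so read depth, height and control signal cannot be read from them and were not used here. Gene records came from GENCODE M1 on mm9, whose build matches the lists. The RefSeq gene and promoter tables at hand are of another build and were not used. Overlaps, motif searches and a count of 40-base words that occur once in mm9 were computed in Python 3.11.15 with NumPy 2.4.6, SciPy 1.17.1 and Numba 0.67.0, and tested on simulated data. Some genes are counted but not reported by name here. Groups -ps, paralog and canonical were set from symbols. Members and gene lists were chosen with earlier results of these data known. Named were the 5 genes with most peaks, widest peaks and widest H3K4me1 regions, genes without a region, X-linked genes, paralogs and some well-known members. Alternatives changed window, width, start definition and members. Intervals cover counting error only, and genes are not replicates.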

Additional observations from a re-analysis of the deposited data

How the results depend on the processing

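Of 55 alternatives, 32 moved a value by less than its interval or spread, 23 moved it further and 0 were labelled as reversing it. These labels took no account of the share over all protein-coding genes, which is given beside most values below. Alternatives by -ps ending (13 in all, with the consensus in canonical genes) were chosen after seeing the data. With peaks above the median width only, Runx3 within 5 kb fell from 47.8% to 29.9% of the 134 genes. Runx3 at the start fell from 38.8% to 23.9%. Over all protein-coding genes these wide-peak shares were 25.3% and 14.8%. With wide H3K4me1 regions only, the shares within 5 kb, at the start and over the start base were 59%, 50.7% and 5.97%. In the main setting they were 67.9%, 61.2% and 23.1%, and with wide regions over all protein-coding genes 53.3%, 39.3% and 19.1%. H3K4me1 in the gene body alone gave 59%, and within 250 bp of the start 46.3%, beside 63.3% and 49.8% of all protein-coding genes. Both shares thus lay below those of all genes, whereas the main settings gave 67.9% beside 67.7% and 61.2% beside 56.8%. The RUNX consensus in the central 200 bp of peaks was in 59.6%, against 86.5% in whole peaks. Over all peaks at coding starts these shares were 58.9% and 91.2%. The 5 shares also changed with the members counted. For Runx3 within 5 kb and at the start, H3K4me1 within 5 kb, at the start and over the start base, canonical genes gave 76.4%, 65.3%, 100%, 98.6% and 40.3%. Without the -ps genes the shares were 74.1%, 63%, 96.3%, 93.8% and 38.3%, and in -ps genes alone 7.55%, 1.89%, 24.5%, 11.3% and 0%. Over all protein-coding genes they were 39.8%, 25.8%, 67.7%, 56.8% and 34.5%. Over the start base the 134 genes, at 23.1%, thus lay below all genes, and the canonical genes above. Leaving out chromosome X, or genes with under 50% unique words at the start, moved none of the 5 shares beyond its interval. No paired analysis was possible because each antibody has 1 list and no replicate list was analysed here. The lists give no depth, so a gene without a region may hold binding below the authors' threshold.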
